A study of Drosophila melanogaster with 4 samples.

Results

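The regions described here are HDAC3 peaks of the Drosophila embryo that were called with both first-round antibodies and that lie at divergent promoters. A divergent promoter was taken as a head-to-head pair of protein-coding genes, in which the transcription start site (TSS) of a minus-strand gene lies upstream of the TSS of a plus-strand gene at a distance of at most 1000 bp. A peak of the rat antibody was counted when it overlapped a peak of the rabbit antibody by at least 1 bp, lay on chromosome 2L, 2R, 3L, 3R, 4 or X, and had an edge within 500 bp of both TSSs. By this rule 509 peaks were members, out of 6258 peaks in the first-round rat list and 2463 rat peaks on the chromosome arms that were shared between the antibodies. Within 500 bp of any protein-coding TSS there were 1402 shared peaks, so the members made up 36.3% of the shared promoter peaks (95% exact binomial interval 33.8 to 38.9%). The other 893 shared promoter peaks serve as the comparison, of which 814 were near 1 gene and 79 near more genes that did not form a pair. The members were chosen by the peak calls of both antibodies, so the fold enrichments of the rat and rabbit peaks are given as a description.

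HDAC3 is the histone deacetylase of the SMRTER corepressor complex, the fly counterpart of NCoR and SMRT, in which Ebi is a further subunit. Divergent promoters place a pair of genes back to back, so that a factor bound between them lies upstream of both. In Drosophila many of these promoters belong to broadly expressed genes and carry the binding sites of DREF, BEAF-32 or M1BP, whereas developmentally regulated genes more often use GAGA factor and, in the early embryo, the pioneer factor Zelda.

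Occupancy was measured by CUT&Tag, in which an antibody directs a transposase to the chromatin around the protein and the released fragments are sequenced. All 4 libraries came from whole embryos 2 to 4 h after egg laying, raised at 25°C, with nuclei of many embryos pooled. First-round w1118 embryos were profiled with HDAC3 antibodies raised in rat and in rabbit, while second-round embryos were w1118 or tub-GAL4/shRNA HDAC3 and were profiled with the rat antibody alone. The deposited titles call both second-round libraries a second replicate, so w1118 with the rat antibody has 2 libraries, 1 in each round, and the other combinations have 1. The 2 rat lists of w1118 are kept apart as first and second round, and no test over samples was made. With the second-round list in place of the first-round rat list, 88 peaks would be members. The tub-GAL4 driver is matalpha4-GAL-VP16, which acts in the female germline, so the hairpin lowers the maternal HDAC3 supply, and w1118 lacks the driver. In each list a peak has a fold enrichment, which is the ratio of its signal to the local background that the peak caller estimated. The lists give no read numbers, so depth is unknown, and they differ in size, with 6258 rat, 3645 rabbit, 1142 second-round w1118 and 102 HDAC3 shRNA peaks. A smaller list can come from a shallower library, and this cannot be told apart from lower occupancy.

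The stretches between the TSSs of strong members are shown first, since they are the sequence that the divergent genes share. They belong to members among the strongest by rat fold enrichment that also had a second-round w1118 peak, whose TSSs lie 100 to 300 bp apart and between which no exon is annotated. Each runs from the base after the minus-strand TSS to the base before the plus-strand TSS, on the plus strand of dm6 (RefSeq). Capitals mark the letters of 4 motifs on either strand, namely DREF (TATCGATA), M1BP (GGTCACACT), GAGA (GAGAG) and Zelda (CAGGTAG).
dome/Ubqn, chrX:19683519-19683807: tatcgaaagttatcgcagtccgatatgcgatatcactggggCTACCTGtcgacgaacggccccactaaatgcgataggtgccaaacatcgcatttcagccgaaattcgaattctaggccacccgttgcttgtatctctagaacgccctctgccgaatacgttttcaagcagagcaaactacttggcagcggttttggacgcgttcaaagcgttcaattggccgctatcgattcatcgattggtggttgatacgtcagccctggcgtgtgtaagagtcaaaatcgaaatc
CG9281/CG15601, chrX:15710540-15710646: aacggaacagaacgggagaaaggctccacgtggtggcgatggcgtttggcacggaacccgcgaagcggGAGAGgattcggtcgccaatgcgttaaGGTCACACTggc
gb/CG5815, chr3R:27112271-27112565: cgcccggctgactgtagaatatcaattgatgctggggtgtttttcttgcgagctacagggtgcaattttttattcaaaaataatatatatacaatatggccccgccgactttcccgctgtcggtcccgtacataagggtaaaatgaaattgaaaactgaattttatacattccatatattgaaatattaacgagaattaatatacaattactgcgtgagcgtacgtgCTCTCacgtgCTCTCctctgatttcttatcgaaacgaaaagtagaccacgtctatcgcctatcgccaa
ko/ICA69, chr3L:21131160-21131445: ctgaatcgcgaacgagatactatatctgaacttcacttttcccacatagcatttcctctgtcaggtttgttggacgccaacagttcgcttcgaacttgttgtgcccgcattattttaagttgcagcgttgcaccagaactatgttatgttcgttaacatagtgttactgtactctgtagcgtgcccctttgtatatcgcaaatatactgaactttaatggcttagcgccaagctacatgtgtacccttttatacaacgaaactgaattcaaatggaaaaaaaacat
Tdg/Pur-alpha, chr4:557855-558015: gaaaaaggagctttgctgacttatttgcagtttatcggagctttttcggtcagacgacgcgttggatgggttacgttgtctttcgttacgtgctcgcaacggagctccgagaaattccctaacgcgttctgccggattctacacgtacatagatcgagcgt
His4:CG31611/His3:CG31613, chr2L:21425006-21425192: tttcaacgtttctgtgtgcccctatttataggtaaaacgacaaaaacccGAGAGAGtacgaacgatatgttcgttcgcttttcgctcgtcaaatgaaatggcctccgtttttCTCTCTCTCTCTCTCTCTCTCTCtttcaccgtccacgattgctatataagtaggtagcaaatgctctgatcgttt
Nprl3/upSET, chr3L:14001881-14002126: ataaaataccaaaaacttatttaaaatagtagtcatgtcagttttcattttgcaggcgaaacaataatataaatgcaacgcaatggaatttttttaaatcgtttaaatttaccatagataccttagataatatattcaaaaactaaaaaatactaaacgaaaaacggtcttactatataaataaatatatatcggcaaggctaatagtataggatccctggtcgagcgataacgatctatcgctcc
No DREF letters stand between the TSSs of these pairs, and the stretches of ko/ICA69, Tdg/Pur-alpha and Nprl3/upSET hold none of the 4 motifs. The dome/Ubqn stretch has 1 Zelda match, 42 bp from the TSS of dome, the receptor of the JAK/STAT pathway, and the rat peak covers all of its 289 bases. The stretch between His4 and His3 has 12 overlapping GAGA matches, 10 of them in 1 CT run. The rat peaks of Tdg/Pur-alpha and Nprl3/upSET cover no base of the printed stretch, because they lie within 1 gene of the pair. In gb/CG5815 the rat peak covers 37 of the 295 bases and the rabbit peak 8. The GAGA letters of gb/CG5815 and of CG9281/CG15601 lie outside the first-round rat peak.

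The next 4 stretches belong to the strongest members, among those not shown above, with DREF or M1BP letters between the TSSs under the same limits of distance and exons, and this set was chosen after the values were seen. The capitals have the same meaning.
Top3beta/wuho, chrX:6287991-6288099: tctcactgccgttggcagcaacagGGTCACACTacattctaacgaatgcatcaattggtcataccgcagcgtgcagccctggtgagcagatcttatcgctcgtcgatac
Nak/Tango6, chr2L:18968745-18969027: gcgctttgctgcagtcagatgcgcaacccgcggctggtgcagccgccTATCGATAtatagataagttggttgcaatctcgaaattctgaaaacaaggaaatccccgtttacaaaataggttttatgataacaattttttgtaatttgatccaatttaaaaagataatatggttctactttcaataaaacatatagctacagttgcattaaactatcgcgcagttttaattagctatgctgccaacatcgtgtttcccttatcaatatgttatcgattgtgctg
Vha55/Snx3, chr3R:12627830-12628030: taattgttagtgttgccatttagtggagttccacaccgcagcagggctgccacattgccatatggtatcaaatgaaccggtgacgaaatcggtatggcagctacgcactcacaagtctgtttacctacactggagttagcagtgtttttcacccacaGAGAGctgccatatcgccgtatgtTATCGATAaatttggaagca
Usp5/BtbVII, chr3L:3148359-3148645: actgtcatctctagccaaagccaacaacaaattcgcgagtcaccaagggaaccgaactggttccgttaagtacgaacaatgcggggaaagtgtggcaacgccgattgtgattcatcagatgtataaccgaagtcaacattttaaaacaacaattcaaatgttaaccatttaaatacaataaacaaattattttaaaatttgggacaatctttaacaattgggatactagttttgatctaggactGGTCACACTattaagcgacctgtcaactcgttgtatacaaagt
Top3beta encodes a topoisomerase, and its 300-bp rat peak covers the M1BP letters that start 25 bp from its TSS. In Vha55/Snx3, the promoter of a V-ATPase subunit and a sorting nexin, the DREF letters lie 20 bp from the TSS of Snx3 and inside the rat peak. The M1BP letters of Usp5/BtbVII are also inside the peak, 43 bp from the TSS of BtbVII. In Nak/Tango6 the DREF letters lie outside the rat peak, with their last base 39 bp past its edge. None of these 4 members had a peak in the second round, but CG9281/CG15601, which is shown above and has M1BP letters as well, did. The M1BP letters of CG9281/CG15601 lie outside its rat peaks of both rounds and inside its rabbit peak.

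Head-to-head pairs held shared peaks more often than promoters of unpaired genes. The annotation has 13945 protein-coding genes on the arms, of which 4648 (33.3%) belong to 2435 head-to-head pairs. A shared peak lay within 500 bp of both TSSs in 581 pairs, which is 23.9% (22.2 to 25.6%), and within 500 bp of either TSS in 730 pairs (30.0%). Of the 9297 unpaired genes 839 had a shared peak within 500 bp, which is 9.02% (8.45 to 9.63%). With the second-round w1118 list in place of the first-round rat list the shares were 3.94% of pairs (3.21 to 4.79%) and 2.53% of unpaired genes (2.22 to 2.87%), and with a −log10 q of at least 3 in both first-round lists 7.97% and 3.64%, so the order stayed and both shares were much smaller. Counted per gene, 1231 of the 4648 paired genes (26.5%, 25.2 to 27.8%) had a shared peak that close, but the 2 genes of a pair often have the same peak and are not separate counts. Another 290 pairs had a rabbit peak alone (11.9%) and 167 a rat peak alone (6.86%), 3 had both without overlap, and 1394 (57.2%) had neither.

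Members were spread over the chromosomes, with 100 on 2L, 92 on 2R, 102 on 3L, 133 on 3R, 81 on X and 1 on chromosome 4. The share of pairs with a shared peak was between 21.5% on 2R and 25.6% on 3R, and on chromosome 4 it was 1 of 8 pairs. Each member was assigned to the nearest of its pairs, which gave 509 pairs of 1018 genes. A further pair qualified for 44 members (8.64%). At the extreme was a 294-bp peak at mod(mdg4) on 3R with a rat fold enrichment of 5.34, for which 21 pairs qualified because the locus is annotated as many separate gene models on both strands.

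Pairs with close TSSs held a shared peak more often by the rule. The share was 33.9% (124 of 366) at up to 100 bp, 33.0% (108 of 327) above that up to 200 bp, 25.3% (222 of 879) from there to 400 bp and 14.7% (127 of 863) at wider gaps. When a peak near either TSS was counted, the shares were 34.2%, 33.3%, 27.4% and 29.5%. The fall at wide gaps was therefore much smaller without the demand that 1 peak reach both TSSs. The median gap was 272 bp among members (249 to 290 bp, interval of the median over peaks). The smallest gap was 2 bp at dpa/didum, the genes of the replication helicase subunit Mcm4 and of myosin V, with a rat fold enrichment of 4.84, and the next was 10 bp at CG1360/scra, the anillin gene, with 4.19.

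Just inside the limit of 1000 bp lay daed/mio with a gap of 979 bp and a rat fold enrichment of 3.12. The nearest pair outside it was Alk/gprs, with 1232 bp and a fold enrichment of 3.80. At the limit on the peak edge, Spase22-23/mask lay 500 bp and E(bx)/mthl14 499 bp from the farther TSS, with fold enrichments of 2.78 and 3.73, and CG18659/Hydr1 and knon/Sema2a fell outside at 502 bp with 3.18 and 3.88. Values on either side of the limits were thus within the same range.

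Members seldom sat wholly between the TSSs. The rat peak covered both TSSs in 223 members (43.8%, 39.5 to 48.2%) and 1 TSS in 214 (42.0%), of which 112 were that of the minus-strand gene. Another 63 (12.4%) lay inside 1 gene past its TSS, and 9 (1.77%) lay between the TSSs without reaching either. The rabbit peak covered both TSSs in 257 members (50.5%), and both antibodies did in 167 (32.8%). The centre of the rat peak was between the TSSs in 152 members (29.9%), and its median distance from the midpoint was 221.5 bp (193 to 250 bp), compared with 200 bp for the rabbit peak.

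**Figure D1:**
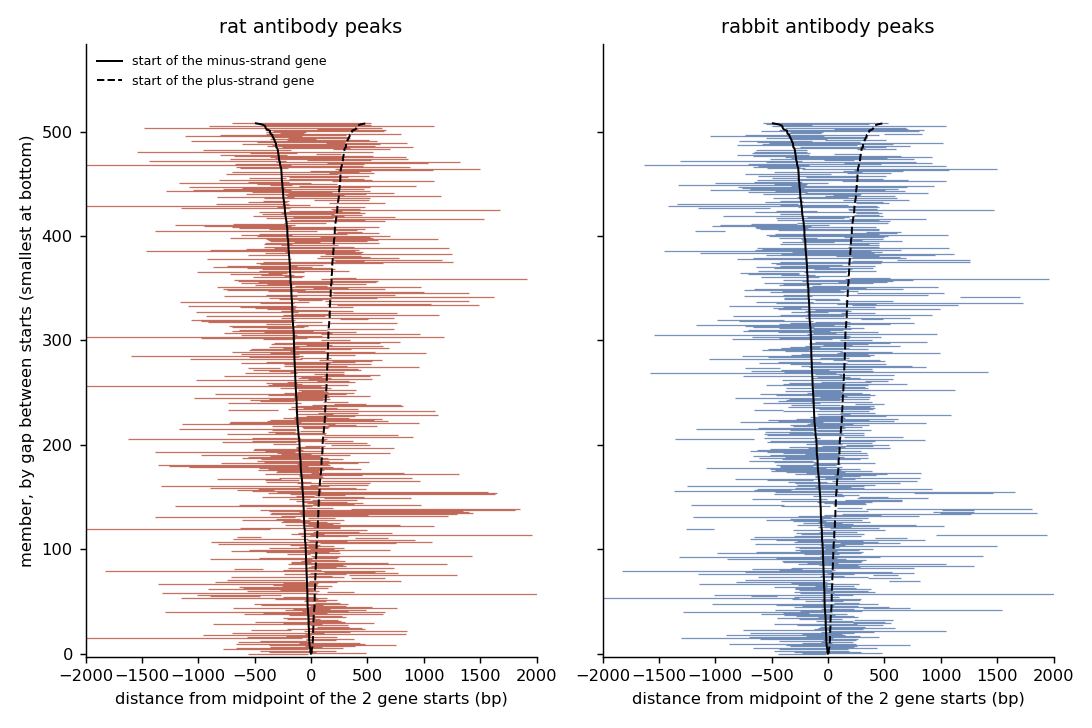
Rat (left) and rabbit (right) peaks of the 509 members, each drawn as a horizontal line by its distance in bp from the midpoint of the 2 TSSs and sorted by gap, with the smallest gap at the bottom. The solid and dashed curves mark the TSSs of the minus- and plus-strand genes. Of the rat peaks over 1 TSS, 112 of 214 cover that of the minus-strand gene, and the longest peaks run past the frame.

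The centre of the members lay 111 bp (median, 92 to 129 bp) downstream of the nearer TSS, and at 145 bp (126 to 173 bp) downstream of the TSS in the 814 other peaks with 1 gene. It was downstream in 70.1% of members and in 67.0% of these other peaks. Members covered the nearer TSS in 85.9% and the other peaks their TSS in 64.3%, but the rule favours this, since a member must come within 500 bp of a pair of TSSs and the nearer of them was taken. Coverage by members was highest 30 bp downstream of the nearer TSS, at 89.6% of the peaks.

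**Figure D2:**
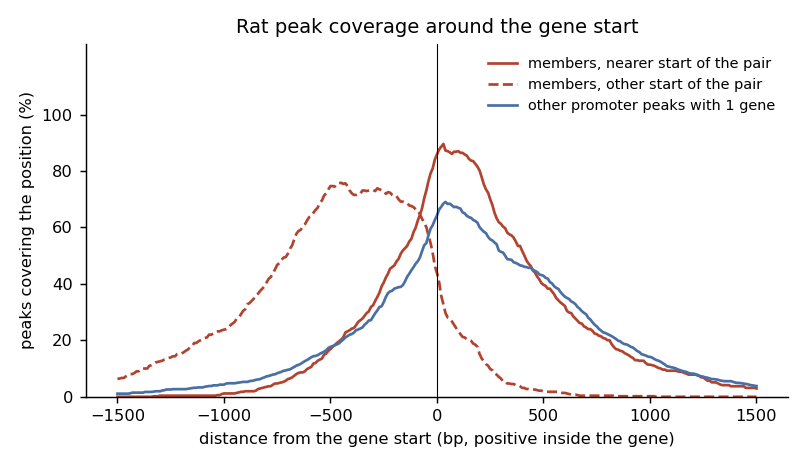
Share of rat peaks (%) that cover each position around a TSS, in bp, with positive distances inside the gene. Members are shown from the nearer TSS of the pair (solid red) and from the other TSS (dashed red), and other promoter peaks with 1 gene from their TSS (blue). Members reach 89.6% at 30 bp and other peaks 69.0% at 40 bp, and coverage from the other TSS of a pair lies mostly on its upstream side, where the nearer gene is.

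Fold enrichment of the members was lower than that of the other promoter peaks with the rat antibody and about equal with the rabbit antibody. The rat fold enrichment of members was between 2.57 and 8.91 with a median of 3.88 (3.76 to 3.95), and that of the other promoter peaks between 2.47 and 12.02 with a median of 4.17 (4.09 to 4.25). In the rabbit list the medians were 4.06 (3.94 to 4.13) and 4.08 (4.02 to 4.14). The strongest 10% of the 1402 peaks by rat fold enrichment held 5.50% of the members (28 of 509) and 12.7% of the others (113 of 893). Other peaks near more than 1 gene had a rat median of 3.69 (3.499 to 3.960), which overlaps the interval of the members.

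Members were somewhat wider than the others, with medians of 654 bp (599 to 721 bp) and 601 bp (566 to 638 bp) in the rat list. In the rabbit list the medians were 605 bp (543 to 669 bp) and 506 bp (479 to 526 bp). The rat intervals overlapped, and the rule favours wide peaks, since 1 peak must come within 500 bp of both TSSs. Other peaks near more than 1 gene had medians of 664 bp (522 to 785 bp, rat) and 580 bp (491 to 734 bp, rabbit). Width went with placement, as members over both TSSs had a median of 871 bp and those over 1 TSS 525.5 bp. The centres of the rat and rabbit peak were 106 bp apart in members and 73 bp in the others (medians). In the other peaks near more than 1 gene this distance was also 106 bp. Rat and rabbit fold enrichments had a Spearman correlation of 0.382 across the 509 members and 0.513 across the 893 others. These are correlations across sites of the same 2 libraries and are given as a description.

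**Figure D3:**
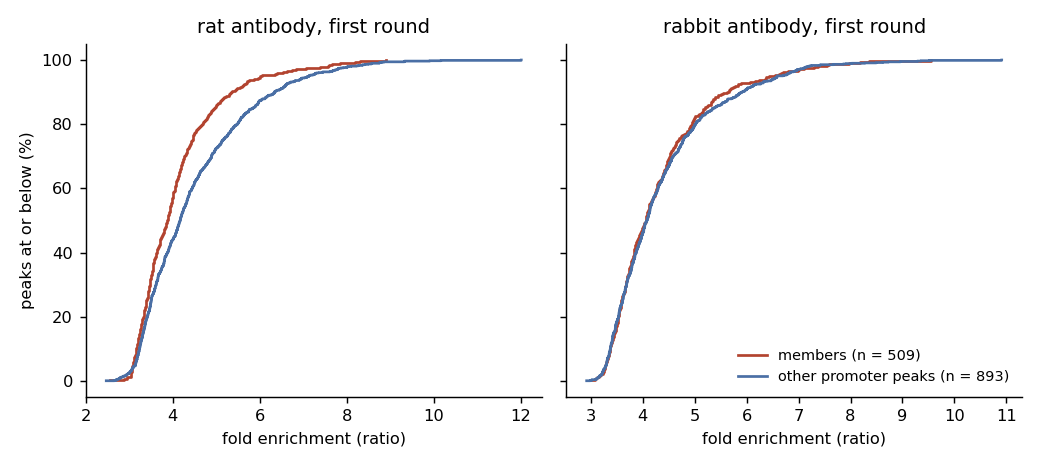
Cumulative share of peaks (%) against fold enrichment (ratio) in the first-round rat list (left) and rabbit list (right), for the 509 members (red) and the 893 other promoter peaks (blue). The rat curve of the members lies at lower values, with medians of 3.88 and 4.17, and the rabbit curves run together, with medians of 4.06 and 4.08.

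In the 10 strongest members that the second round also held, the second-round fold enrichment was below both first-round values, each taken against the background of its own list. These 10 were picked for a high first-round rat value, so lower values in another list are favoured by the choice. CNBP/CG9849 on 2R, where CNBP encodes a nucleic acid-binding zinc finger protein, had fold enrichments of 8.91 with the rat antibody, 7.29 with the rabbit antibody and 3.43 in the second round. At app/CG32100, where app encodes a palmitoyltransferase of the Fat pathway, they were 8.19, 6.62 and 4.29. The peak of l(2)34Fd/Rab14, the latter an endosomal GTPase, had 8.11, 6.18 and 3.99. All 3 of these peaks thus rank high in the first-round lists of both antibodies.

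CG9921/Dsp1 has TSSs 12 bp apart, and its 672-bp rat peak covered both, with fold enrichments of 7.79 (rat), 7.55 (rabbit) and 4.86 (second round). Dsp1 is an HMG-box protein that acts with Dorsal in repression. The promoter of fy and emb, which encode a planar polarity protein and the nuclear export receptor, had 7.58 in the rat list, 4.85 in the second round and, in the rabbit list, 9.56, which was the highest rabbit value of all members. The dome/Ubqn peak, whose sequence is shown above, followed in the rabbit list with 8.65 and had 7.57 and 3.80 in the rat lists of the first and second round.

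PGAP1/cv, the latter a BMP-binding protein, had a rat value of 7.67, a rabbit value of 4.91 and a second-round value of 4.36. For px/CG11362, where px acts in wing vein patterning, the same values were 7.57, 6.79 and 4.94. CG13484/Frl, the latter a formin, and CG9281/CG15601 had rat values of 7.39 and 7.07 and second-round values of 3.94 and 3.51. Of these 10 members 8 covered 1 TSS and 2, CG9921/Dsp1 and dome/Ubqn, covered both. Strength in 1 list did not always carry over to another. The second strongest rat peak among members, at Kpc1/CG42542 (8.69, rabbit 7.10), and the next, at CG6191/fand (8.30, rabbit 4.48), had no second-round peak, nor did CG17327/CG7518, which had the third highest rabbit value (8.36) and a rat value of 5.14.

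In the second round 111 of the 509 members had a w1118 peak (21.8%, 18.3 to 25.7%), compared with 272 of the 893 other promoter peaks, which is 30.5% (27.5 to 33.6%). Of the 79 other peaks near more than 1 gene 17 had one (21.5%, 13.1 to 32.2%), close to the share of the members. Members with a second-round peak had a median first-round rat fold enrichment of 4.22 (4.04 to 4.46), and those without one 3.72 (3.59 to 3.85). The 1402 peaks were therefore split into 5 groups of equal size by rat fold enrichment, and recovery was compared within each.

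From the weakest to the strongest group, 7.63%, 15.97%, 26.7%, 28.3% and 41.7% of the members and 19.6%, 17.4%, 26.9%, 33.0% and 48.4% of the others had a second-round peak. The intervals of members and others overlapped in all 5 groups, although in the weakest only between 13.83% and 13.99%. These members include 15 peaks of the histone gene array, described below, of which 14 had a second-round peak. Their rat fold enrichments start at 2.57 with a lower quartile of 3.36, and the weakest group reaches 3.37. The groups were not recomputed without the array, so the overlap in the weakest group is not shown to hold outside it. Across members, rat fold enrichments of the 2 rounds had a Spearman correlation of 0.520 over the 111 peaks that both lists hold, which is a description of 2 libraries with the same antibody. Of the 421 second-round promoter peaks 104 were at head-to-head pairs (24.7%, 20.7 to 29.1%), without use of the first-round lists. Pairs with a shared peak had a second-round peak within 500 bp of both TSSs in 15.5% (90 of 581), pairs with a rat peak alone in 7.78%, pairs with a rabbit peak alone in 2.07% and pairs with neither in 0.359%. The first-round classes of these pairs also count only peaks within 500 bp of both TSSs.

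**Figure D4:**
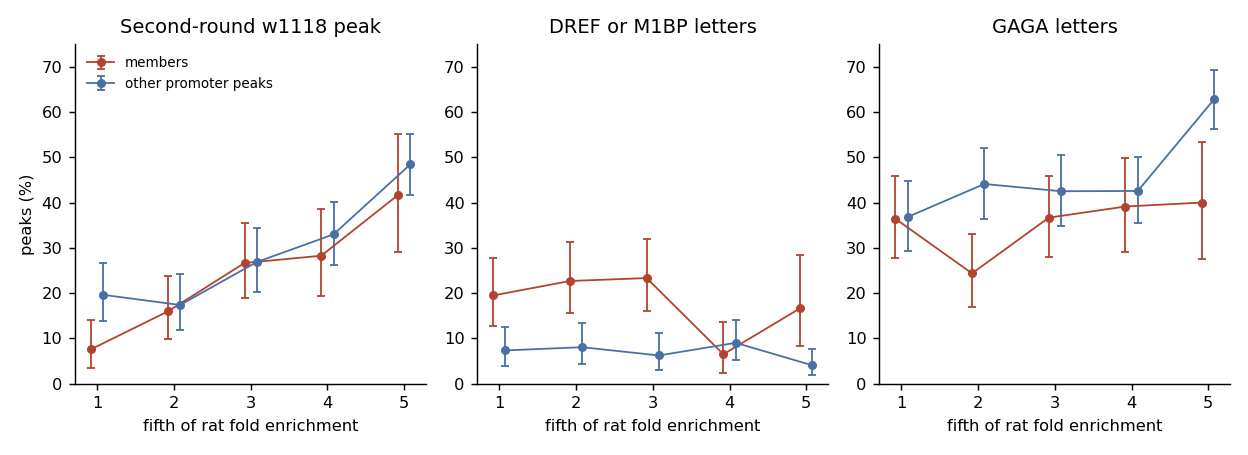
Share of peaks (%) with a second-round w1118 peak (left), with DREF or M1BP letters (middle) and with GAGA letters (right), in 5 groups of shared promoter peaks from the weakest (1) to the strongest (5) rat fold enrichment. Red points are members and blue points other promoter peaks, and bars are 95% exact binomial intervals. Recovery rises with fold enrichment in both, from 7.63% to 41.7% and from 19.6% to 48.4%.

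The repeated histone genes stood out in the second round. On 2L the replication-dependent histone genes lie in a tandem array, and 15 members were at its His4/His3 or His2B/His2A promoters, with rat fold enrichments between 2.57 and 5.05 and a median of 3.71. Of these 15, 14 had a second-round peak (93.3%, 68.1 to 99.8%) and 14 covered both TSSs. The copies are nearly identical, so reads cannot be placed on 1 copy with certainty and the 15 peaks are not separate sites. Outside the array 97 of 494 members had a second-round peak (19.6%, 16.2 to 23.4%). All 15 have gaps above 100 and up to 200 bp, and in that range the second-round share was 29.9% (26 of 87) with and 16.7% (12 of 72) without them. Histone genes outside the array gave 3 members, CG14036/His3.3A, put/His4r and ball/His2Av, with rat values of 3.94, 3.55 and 3.35 and no second-round peak.

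With HDAC3 shRNA 2 of the 509 members had a peak (0.393%, 0.0476 to 1.41%), compared with 0.112% of the other promoter peaks (1 of 893). With the second-round w1118 list in place of the first-round rat list it was 2.27% of the 88 members (0.276 to 7.97%). Among those with a second-round w1118 peak it was 2 of 111 members (1.80%, 0.219 to 6.36%) and 1 of 272 others (0.368%, 0.00931 to 2.03%). At mRpS23/CenG1A, which encode a mitochondrial ribosomal protein and an ARF GTPase activator, the fold enrichment was 6.89 (rat) and 5.33 (rabbit) in the first round, 4.61 in second-round w1118 and 9.90 with the hairpin. At CG8414/Rho1, the latter the GTPase that drives actomyosin contraction, the same values were 4.94, 5.31, 4.90 and 4.50. The shRNA peaks were 253 and 276 bp wide and lay within the first-round rat peaks. The HDAC3 shRNA list has 18 peaks on the arms, and 3 of them were at head-to-head pairs. Genotype, driver and library size cannot be told apart in this comparison.

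Motif letters were counted in windows of 300 bp around the peak centre on both strands, and the same windows at all 13945 protein-coding TSSs give the background. Peak centres lay a median of 147 bp (135 to 163 bp) from the nearer TSS in members, on either side of it. In the 814 other peaks with 1 gene this distance was 245.5 bp (227 to 269 bp). The windows of members thus lay closer to a TSS, and the part of this in the shares was not tested. DREF letters were present in 9.23% of members (47 of 509, 6.86 to 12.1%), 3.14% of other promoter peaks (28 of 893, 2.09 to 4.50%) and 8.53% of all TSSs. M1BP letters were present in 9.63% (7.21 to 12.5%), 3.92% (2.74 to 5.41%) and 5.74%. Members thus held both more often than other shared promoter peaks did, and DREF letters about as often as TSSs in general. DREF letters or M1BP letters were in 18.5% of members and 6.83% of the others. With the second-round w1118 list in place of the first-round rat list, DREF letters were in 3.41% of the 88 members (0.709 to 9.64%) and 0.752% of the others (0.0912 to 2.69%), and M1BP letters in 6.82% (2.54 to 14.3%) and 1.13% (0.233 to 3.26%). The order of members and others stayed there, but the intervals overlapped and the DREF share of members was below that of all TSSs, which its interval includes.

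GAGA letters showed the opposite order, with 34.6% of members (30.4 to 38.9%), 46.8% of the others (43.5 to 50.1%) and 30.7% of all TSSs. Zelda letters were in 2.75% (1.51 to 4.57%), 4.70% (3.41 to 6.30%) and 1.69%, with overlapping intervals of members and others. With the second-round list Zelda letters were in 0% of members (up to 4.11%). BEAF-32 letters (CGATA), which are part of the DREF letters, were in 45.6%, 35.2% and 47.7%, and the TATA box (TATAAA) in 29.9%, 19.0% and 39.9%. Shares for Motif 6 (GGTATTTT), 4.32% and 2.80%, and for the E-box letters (CAGCTG), 22.8% and 18.8%, had intervals that overlapped between members and others. The median GC content of the windows also differed, at 43.3% in members and 47.3% in the others, and its part in these shares was not tested.

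**Figure D5:**
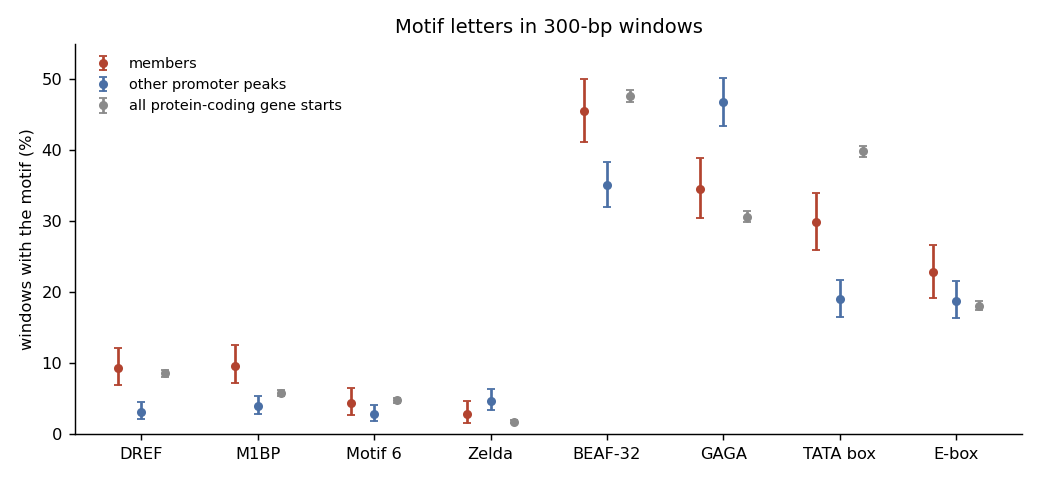
Share of 300-bp windows (%) with the letters of each motif, at the centre of the 509 members (red), at the centre of the 893 other promoter peaks (blue) and at all 13945 protein-coding TSSs (grey). Bars are 95% exact binomial intervals. Members lie above the other promoter peaks for DREF (9.23% and 3.14%) and M1BP (9.63% and 3.92%) and below them for GAGA (34.6% and 46.8%).

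The difference in DREF or M1BP letters was present in most of the range of fold enrichment. In the 5 groups of rat fold enrichment the shares were 19.5%, 22.7%, 23.3%, 6.52% and 16.7% of members and 7.36%, 8.07%, 6.25%, 9.04% and 4.07% of the others, so the order was reversed in the fourth group, which held 92 members. For GAGA they were 36.4%, 24.4%, 36.7%, 39.1% and 40.0% of members and 36.8%, 44.1%, 42.5%, 42.6% and 62.9% of the others. Members with M1BP letters in the window were narrow, with a median width of 286 bp (251 to 309 bp), compared with 419 bp for DREF and 767.5 bp for GAGA. The 300-bp window leaves out letters farther from the centre of a wide peak. In the whole peak M1BP letters were in 16.7% of members, whose width was not computed.

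DREF or M1BP letters were less frequent, and GAGA letters more frequent, in members that the second round also held. DREF or M1BP letters were in 9.01% (4.41 to 15.9%) of the 111 members with a second-round peak and in 21.1% (17.2 to 25.4%) of the 398 without one, and GAGA letters in 45.0% (35.6 to 54.8%) and 31.7% (27.1 to 36.5%). Outside the histone array the shares were 10.3% (5.06 to 18.1%) and 21.2% (17.2 to 25.5%) for DREF or M1BP, and 43.3% (33.3 to 53.7%) and 31.5% (26.9 to 36.3%) for GAGA, and the intervals overlapped for each. Members with DREF letters had a median rat fold enrichment of 3.72 and those with M1BP letters 3.76, below the 3.97 of those with GAGA letters, and the part of strength in the recovery was not tested.

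The same letters were counted in windows at the midpoint of all pairs, with and without a shared peak. DREF letters were in 15.7% (12.8 to 18.9%) of the 581 pairs with a shared peak and 12.9% (11.4 to 14.6%) of the 1854 without one, and these intervals overlapped. M1BP letters were in 10.7% (8.28 to 13.5%) and 6.69% (5.59 to 7.92%), and the TATA box in 45.3% (41.2 to 49.4%) and 55.3% (53.0 to 57.6%), in both cases with separate intervals. GAGA letters, at 22.4% and 20.8%, and Zelda letters, at 1.20% and 1.40%, had overlapping intervals. A match gives the presence of the letters and does not show binding.

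The members were also read against 12 lists of gene families, which describe what the paired genes do. Among the paired genes of a list the share with a shared peak at both TSSs was highest for chromatin regulators and histone deacetylase complexes, at 40.3% (25 of 62, 28.1 to 53.6%), where all paired genes give 23.3% (1083 of 4648). These included the pairs mor/Hel89B (rat fold enrichment 5.80), with Moira of the Brahma complex, Mvk/Iswi (5.605), with the remodeller ISWI, and Idh3a/CoRest (5.30), with a corepressor. The deacetylase genes HDAC6 (CG9114/HDAC6, 4.23) and HDAC1 (Src64B/HDAC1, 3.34) were there as well, the latter with a second-round fold enrichment of 5.24, and so was the gene of M1BP (M1BP/CG8202, 3.39). Of the 24 members with a gene of this list only 3 had a second-round peak. The interval of that share, 2.66 to 32.4%, includes the 21.8% of all members. Unpaired genes of this list had a shared peak at their own TSS in 34.5% (10 of 29, 17.9 to 54.3%), where all unpaired genes give 9.02%. Counted at their own TSS in the same way, the paired genes of the list had one in 43.5% (27 of 62, 31.0 to 56.7%) and all paired genes in 26.5%.

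Ubiquitin and protein transport genes had a shared peak in 30.5% of the paired genes (25 of 82), led by l(2)34Fd/Rab14, Vps8/sfl (6.35) and CG8155/Arf6 (6.06), which hold an endosomal GTPase, an endosomal tethering subunit and an ARF GTPase. For translation initiation factors and tRNA synthetases it was 30.2% (13 of 43), with Patronin/eIF3b (6.53), TyrRS/CG33158 (5.37) and CG34015/eIF4H1 (4.34). DNA replication genes had 28.6% (8 of 28), with dpa/didum (4.84), RPA1/Mcm2 (4.09) and RfC38/CG4751 (3.89). Mitochondrial ribosomal proteins had 26.8% (15 of 56), with mRpS23/CenG1A, trr/mRpL16 (4.96) and PIG-N/mRpL42 (4.38). The intervals of these 4 lists all include the share of all paired genes.

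Splicing genes had 25.0% (10 of 40), with CG6191/fand (8.30), snRNP-U1-C/gukh (4.26) and Sf3b6/Tnpo (4.01), and general transcription and Mediator genes 23.8% (15 of 63), with CG3337/Nelf-A (4.31), Fak/Spt5 (4.26) and schlank/Spt6 (4.13), whose latter genes act in pausing and elongation of RNA polymerase II. The proteasome had 22.7% (5 of 22), with mRpL39/Prosbeta2 (3.80), Slbp/Rpn2 (3.22) and Rpn7/AP-2mu (3.20), and cytosolic ribosomal proteins 21.2% (11 of 52), with CG17271/RpS20 (5.03) and CG6693/RpL3 (4.17). Respiratory chain genes had 16.2% (6 of 37), with Sec3/COX7B (5.46), Afti/ATPsynE (4.73) and COX6B/CG33932 (4.35). Shares in these 5 lists were close to or below that of all paired genes, and their intervals include it.

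In 2 lists, the cell cycle and zygotic patterning, most genes with a shared peak were unpaired. Of the paired cell cycle genes 13.5% (5 of 37, 4.54 to 28.8%) had a shared peak at both TSSs, with barr/lok (4.03), cnn/Golgin97 (4.00) and cbc/cid (3.11), and 18.9% (7 of 37, 7.96 to 35.2%) had one at their own TSS. Of the unpaired ones 45.5% had one at their TSS (15 of 33, 28.1 to 63.6%), where all unpaired genes give 9.02%. Zygotic patterning transcription factors were seldom in a pair (3 of 66), and none of these 3 had a shared peak within 500 bp of its own TSS, which allows a share of up to 70.8%, but 30 of the 63 unpaired ones did (47.6%, 34.9 to 60.6%). In all, 126 members held a gene of the 11 lists other than patterning, and 17 of them had a second-round peak (13.5%, 8.06 to 20.7%), compared with 80 of the 368 members without such a gene and outside the histone array (21.7%, 17.6 to 26.3%). These intervals overlapped. The median rat fold enrichments of these groups were 3.77 and 3.92, and the part of strength in the recovery was not tested.

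The genes of the HDAC3 complex were themselves found in different settings. HDAC3 forms a head-to-head pair with Hcs, with TSSs 299 bp apart, and had no shared peak within 500 bp. The ebi gene pairs with AP-2alpha, a clathrin adaptor subunit, at 290 bp, and its 779-bp rat peak covered both TSSs with fold enrichments of 3.65 (rat) and 4.58 (rabbit) and had no second-round peak. Smr, the gene of SMRTER, is unpaired and had a shared peak within 500 bp of its TSS.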

How the data were processed

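HDAC3 CUT&Tag was done on pooled whole embryos, with 1 library per round, genotype and antibody, where the titles call the second round a second replicate. According to the methods and processing notes, the authors used Trim Galore for paired reads, Bowtie2 for mapping to dm6, MACS2 for peak calling and ChIPseeker for annotation. Versions, peak calling options, a control library and the handling of reads that map to several places are not given in the sources used here. The authors deposited 1 peak list per library, in which the fold enrichment is a ratio to local background and p- and q-values are given as −log10. The score the authors deposited was left out. In the w1118 lists −log10 q started at 1.60. Read numbers are not in the lists, so the depth is unknown, and coverage tracks were not used here.

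Comparisons used scipy 1.17.1, pandas 2.3.3 and numpy 2.4.6 under Python 3.11.15, and plots matplotlib 3.10.9. Gene models came from Ensembl release 115 (BDGP6, the coordinates of dm6), where the TSS is the outermost 5′ end of a gene, and sequence from RefSeq. Motifs were searched as exact letters on both strands in 300-bp windows. Members on 2R were left out of the choice of printed sequences. Shares have exact (Clopper-Pearson) 95% intervals and medians order-statistic intervals. Both describe counting error among peaks, which do not replace replicates. Overlap of 2 such intervals does not show that the values are equal, and differences between groups of peaks were not tested. No test over samples was made, since w1118 with the rat antibody has 2 libraries, whose lists were kept apart by round, and the other combinations have 1. The overlap, pairing and motif functions were checked on simulated data.

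Members, gene lists and comparisons were chosen with earlier results of these data known. The members named are the 10 with the highest rat fold enrichment among those with a second-round w1118 peak, the 3 with the highest rabbit value, those with an HDAC3 shRNA peak, those at the limits of the rule, the 3 strongest of each gene list and the genes of the HDAC3 complex. Others, namely Kpc1/CG42542, the histone genes, mod(mdg4), HDAC1, HDAC6, M1BP and the 4 pairs with DREF or M1BP letters, were chosen after their values were seen. Some items that these rules select are not reported here. Alternatives covered the overlap, the TSSs, the gap, the distance, the q-value, the list that carries the set and the motif window.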

Additional observations from a re-analysis of the deposited data

How the results depend on the processing

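The order of members and other promoter peaks kept its direction under every alternative that gave values, for DREF, M1BP, GAGA and Zelda letters (9 alternatives each), second-round recovery and rat fold enrichment (7 each), as did that of pairs and unpaired genes (8). Of 155 values recomputed, 103 stayed within the interval of the first value, or within 1.5 times for the number of members, and 52 moved outside it; the cause was not tested except where the alternative itself changes the peaks or pairs counted. In the following, shares of pairs and of unpaired genes mean those with a shared peak, and recovery means a second-round w1118 peak.

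With a reciprocal overlap of 50% the shares were 15.4% of pairs and 6.68% of unpaired genes, recovery of other promoter peaks 33.7%, and rat medians 3.95 (members) and 4.30 (others). With any annotated transcript start, unpaired genes gave 9.76%, and the others had a recovery of 33.6%, a rat median of 4.27 and GAGA letters in 52.1%. With TSSs at most 500 bp apart, members were 32.3% of shared promoter peaks, and 28.3% of pairs and 10.3% of unpaired genes had a peak. With peak edges within 250 bp these 3 shares were 30.5%, 18.8% and 8.21%, and the distance from the midpoint was 153.5 bp.

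With a −log10 q of at least 3 in both lists 176 members were left, 33.2% of shared promoter peaks, with 7.97% of pairs and 3.64% of unpaired genes. Recovery was 37.5% (members) and 44.4% (others), the rat medians 4.54 and 5.17, the distance 273.2 bp, GAGA letters 43.2% and 55.4%, and Zelda letters in members 1.14%. With rabbit peaks carrying the set, M1BP letters were in 5.48% of the others. In the whole peak, the letters were in 18.1% (DREF), 16.7% (M1BP), 54.6% (GAGA) and 6.88% (Zelda) of members and 6.50%, 9.07%, 68.0% and 11.8% of the others.

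The second-round w1118 list in place of the first-round rat list left 88 members, 24.9% of shared promoter peaks, with 3.94% of pairs and 2.53% of unpaired genes. HDAC3 shRNA peaks were at 2.27% of these members, the fold enrichment medians were 3.66 and 3.79 and the distance was 323 bp. DREF, M1BP, GAGA and Zelda letters were in 3.41%, 6.82%, 42.1% and 0% of members (up to 4.11% for the last), and the first 3 in 0.752%, 1.13% and 61.7% of the others. Recovery has no value there, nor have rat medians where rabbit peaks carry the set.

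Leaving out the histone gene array, chosen after seeing the data, moved none of these values outside its interval, but in members with gaps above 100 and up to 200 bp recovery went from 29.9% (20.5 to 40.6%) to 16.7%. No paired analysis was possible because only 1 pair of w1118 and HDAC3 shRNA libraries shares a replicate number, and no test was made. The unknown depth and the sizes of the lists limit what recovery and the HDAC3 shRNA shares show, and only w1118 with the rat antibody has a library called a second replicate, whose list is much smaller than the first.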
